A study of Danio rerio with 10 samples.

Results

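The experiment described here sets the transcriptional effect of benzo[a]pyrene (BaP) in zebrafish larvae at 96 hours post fertilization (hpf) against its effect in embryos at 3.3 hpf. For each gene the quantity of interest was the BaP minus control difference at 96 hpf, less the same difference at 3.3 hpf, on the log2 scale. It could be formed for the 12800 genes listed under the same name in the Ensembl gene tables of both ages, out of 20346 genes listed in either. There were 18910 genes in the 96 hpf table and 14236 in the other, so 6110 genes were listed at 96 hpf alone and 1436 at 3.3 hpf alone.

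The 10 RNA libraries came from whole animals of the AB line. Larvae of 96 hpf from the BaP group, 50 µg/L by the labels, were read in 2 libraries and control larvae of the same age in 2. Embryos of 3.3 hpf from the group labelled with the same BaP dose were read in 3 libraries and control embryos in 3. The control is labelled 0.1 mL/L, without the name of the liquid. Each library holds pooled animals, and how many animals or clutches went into one is not given in the sources used here. Also not given are the start of the exposure and whether the embryos themselves or their parents were exposed. Replicates are known only as separate samples, so the p-values below rest on the spread among them, part of which may be technical.

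BaP, a combustion product of fused aromatic rings, is a ligand of a transcription factor, the aryl hydrocarbon receptor (AhR). The bound receptor pairs with Arnt and switches on genes of xenobiotic metabolism, of which cyp1a is the textbook readout. The Nrf2 pathway, which responds to electrophiles and oxidants, shares some of these targets. An embryo of 3.3 hpf is a blastula that still lives largely on messenger RNA laid down by the mother and is only starting to transcribe its own genome. A larva of 96 hpf has hatched and carries working liver, gut, blood, muscle and eye. In RNA from whole animals, fewer cells of a type and less RNA per cell cannot be told apart.

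The tables fitted their age labels. Of 10 maternal genes fixed as age markers, 7 were listed at 3.3 hpf alone, and of 22 larval tissue genes 19 were listed at 96 hpf alone. Levels are given in CPM, the reads of a gene per fixed total of reads in the library, scaled within each age and not corrected for gene length, so levels of different genes are not compared. Depth ran between 13.15 M and 17.68 M reads at 96 hpf and between 17.45 M and 22.16 M at 3.3 hpf, where each of the 3 BaP libraries was deeper than each control library. The part of depth in the results was not tested. The larval table lists only genes above 1 CPM in 2 or more libraries and the embryo table only genes above 1 CPM in 3 or more, so a gene absent from a table was below that floor and not shown to be silent. Along the first principal component, which held 71.8% of the variance at 96 hpf, BaP replicate 2 lay at 39.7 and BaP replicate 1 at 2.3, with the controls at -13.5 and -28.5. At 3.3 hpf the first component held 38.9% of the variance and mixed the groups, with BaP libraries at -29.4, 49.9 and 2.7 and control libraries at 21.0, -32.2 and -11.9.

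The exposure effect differed between ages for 3 named genes, cyp1a, gstp1 and cyb5a, all with the larger effect in larvae. They were the only genes of 12800 with an adjusted p under 0.05, a share of 0.0234%, in limma on log2(CPM + 0.5) with Benjamini-Hochberg adjustment over all shared genes. Without adjustment 1496 genes, or 11.7%, had a p under 0.05, of which 641 (5.01%) had a positive difference and 855 (6.68%) a negative one. The sign itself was positive for 6628 genes (51.8%) and negative for 48.2%, and with the values as deposited it was positive for 46.9%.

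Cyp1a encodes the monooxygenase that oxidises BaP. Its level was 780 and 850 CPM in BaP larvae, against 16.0 and 15.7 CPM in control larvae. In embryos it was 0.80, 1.65 and 1.75 CPM with BaP, against 1.75, 1.71 and 0.82 CPM in controls. The larval groups lay far apart, whereas the embryo groups overlapped completely at a level close to the floor of the table. The effect was 5.64 log2 units at 96 hpf and -0.02 at 3.3 hpf, with a 95% interval between -0.65 and 0.61 at the earlier age. The difference between ages was 5.66 ± 0.45 log2 units (SE, 95% interval between 4.67 and 6.66), with an adjusted p of 0.00244 in limma.

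Gstp1, a glutathione S-transferase that conjugates electrophiles and is a Nrf2 target, stood at 677 and 814 CPM in BaP larvae, against 265 and 246 CPM in control larvae. BaP embryos had 177, 156 and 194 CPM, against 225, 211 and 173 CPM in control embryos. Unlike cyp1a it was well above the floor at both ages, and the embryo groups overlapped. The effects were 1.54 at 96 hpf and -0.21 at 3.3 hpf, and the difference was 1.74 ± 0.19 log2 units (SE), between 1.31 and 2.17 in the 95% interval, with an adjusted p of 0.0278.

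Cyb5a encodes cytochrome b5, an electron donor to microsomal P450 enzymes. It reached 153 and 175 CPM in BaP larvae, against 62.4 and 60.1 CPM in control larvae. BaP embryos had 45.1, 49.0 and 44.3 CPM, against 46.0, 61.1 and 62.6 CPM in control embryos. The larval groups were separate and the embryo groups overlapped through control replicate 1. Its effects were 1.41 at 96 hpf and -0.28 at 3.3 hpf, with a difference of 1.69 ± 0.20 log2 units (SE, 95% interval between 1.24 and 2.14) and an adjusted p of 0.035.

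The calls of these genes rested on few libraries and on the model. With a spread that has no trend on level limma called 1 gene, and with the replicate number as a block it called 0. Without BaP larval replicate 2 limma called 0 genes, with 722 at an unadjusted p under 0.05, and cyp1a had a difference of 5.6 at an adjusted p of 0.0734. Without BaP larval replicate 1, 109 genes were called, 13 with a positive and 96 with a negative difference. The count was 1 without control larval replicate 1, without control larval replicate 2, without control embryo replicate 2 or without BaP embryo replicate 3. Across the 10 omissions the difference of cyp1a stayed between 5.41 and 5.90, that of gstp1 between 1.61 and 1.87 and that of cyb5a between 1.6 and 1.83.

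**Figure D1:**
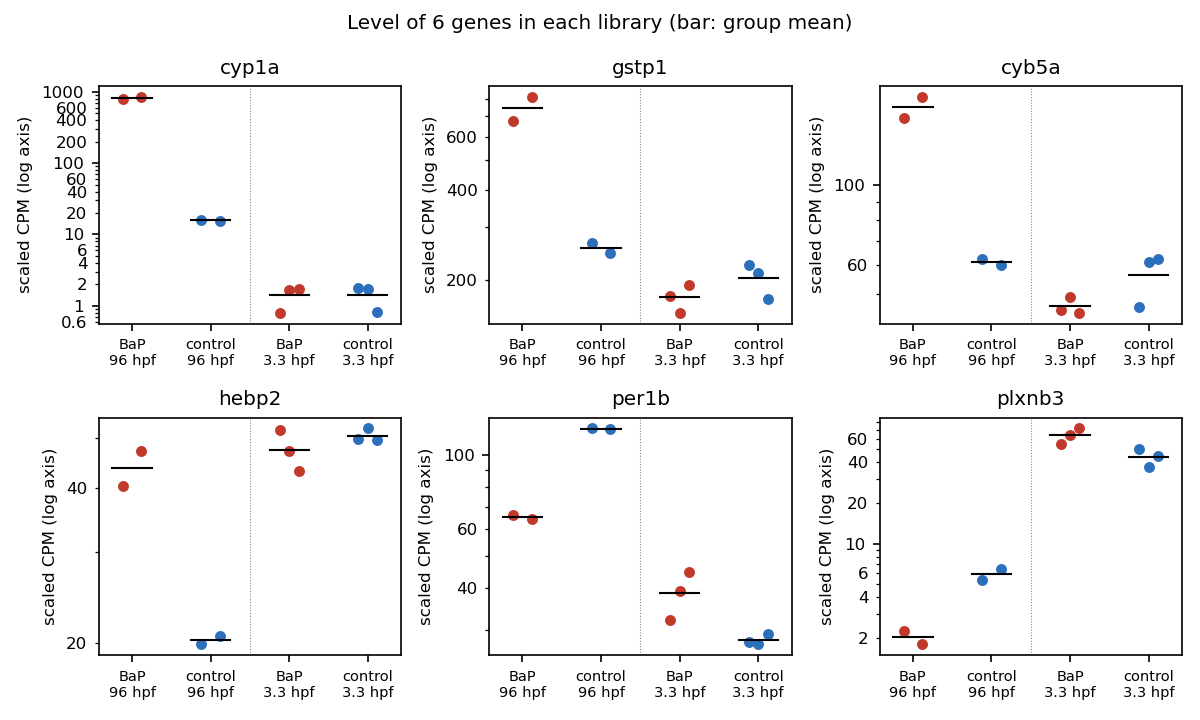
Scaled CPM on log axes that differ between panels, for 6 genes, with 1 point per library (red BaP, blue control) and a bar at the group mean of 2 libraries at 96 hpf or 3 at 3.3 hpf. Cyp1a, gstp1, cyb5a and hebp2 separate BaP from control larvae and overlap in embryos, while per1b and plxnb3 are lower with BaP in larvae and higher with BaP in embryos.

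The genes ranked next, clone names such as FP102118.1 left out, did not pass the adjusted threshold. Each had an adjusted p of 0.116 in limma, and they were named after their values were seen. Hebp2, a heme-binding protein, had 40.4 and 47.1 CPM in BaP larvae, against 19.9 and 20.7 CPM in control larvae, and 51.8, 47.2 and 43.2 CPM in BaP embryos, against 49.7, 52.1 and 49.5 CPM in control embryos. Per1b, a repressor of the circadian clock, had 66.3 and 64.2 CPM in BaP larvae, against 120 CPM in both control larvae, and 32.1, 39.1 and 44.7 CPM in BaP embryos, against 27.6, 27.1 and 29.1 CPM in control embryos. Plxnb3, a plexin receptor for semaphorins, had 2.25 and 1.79 CPM in BaP larvae, against 5.39 and 6.48 CPM in control larvae, and 54.9, 64.1 and 71.6 CPM in BaP embryos, against 50.6, 36.9 and 44.6 CPM in control embryos.

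Hebp2 thus had a difference of 1.18 log2 units carried by the larvae, with overlapping embryo groups. Per1b and plxnb3 had differences of -1.32 and -1.88, and in both genes the BaP libraries lay below every control library in larvae and above every control library in embryos. The opposite layout was seen in TPMT (1 of 2), named after a methyltransferase of thiopurines. It had 20.0 and 18.6 CPM in BaP larvae, against 9.59 and 9.97 CPM in control larvae, and 11.7, 10.4 and 11.7 CPM in BaP embryos, against 17.1, 14.4 and 16.4 CPM in control embryos. Its difference was 1.42 at an adjusted p of 0.208.

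Among the 30 genes with the smallest p, jam3b alone had groups that overlapped in larvae, and it had separate groups in embryos. This junctional adhesion molecule had 45.4 and 51.0 CPM in BaP larvae, against 60.2 and 49.0 CPM in control larvae. BaP embryos had 54.5, 51.1 and 50.8 CPM, against 25.7, 24.0 and 32.1 CPM in control embryos. The effects were -0.17 at 96 hpf and 0.93 at 3.3 hpf, giving a difference of -1.1 with an adjusted p of 0.223, which did not pass. It was singled out after its values were seen.

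Of 13 AhR target genes found in the tables, 6 were shared by both ages, 6 were listed at 96 hpf alone and ahrrb, an AhR repressor gene, was listed at 3.3 hpf alone. All 6 shared targets had a positive difference, against 51.8% of all genes, and in none did both effects have the same sign. The median effect of the 6 was 0.58 at 96 hpf and -0.24 at 3.3 hpf, beside medians of 0.02 and -0.00 over all shared genes. Only cyp1a passed the adjusted test for the difference. With no scaling beyond the deposited values, cyp1d1 lost its place above controls at 96 hpf, which left 5 of 6 and gave 1 target the same sign at both ages.

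Nqo1, a quinone reductase that both AhR and Nrf2 can switch on, had 80.8 and 106 CPM in BaP larvae, against 64.2 and 56.1 CPM in control larvae. In embryos it had 10.1, 11.6 and 7.07 CPM with BaP, against 14, 11 and 11 CPM in controls. The larval groups were separate and the embryo groups overlapped, with a difference of 0.95 log2 units (95% interval between 0.23 and 1.66, adjusted p 0.33). Tiparp, an ADP-ribosyltransferase that represses AhR, had 48.0 and 52.4 CPM in BaP larvae, against 37.5 and 31.7 CPM in control larvae. In embryos it had 10.3, 14.4 and 15.9 CPM with BaP, against 13.1, 16.1 and 16.4 CPM in controls. Its layout was that of nqo1, with a difference of 0.71 (between 0.06 and 1.36, adjusted p 0.40).

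The remaining shared targets were too variable in embryos for a narrow interval. Foxq1b, a forkhead transcription factor, had 19.0 and 22.6 CPM in BaP larvae, against 8.35 and 6.42 CPM in control larvae, and rose at 96 hpf by 1.44 log2 units in the larval test. Its embryo values were 3.45, 6.19 and 0.63 CPM with BaP, against 1.13, 6.49 and 4.46 CPM in controls, and the interval of the difference, 1.75, ran between -0.59 and 4.09. Nfe2l2a, which encodes Nrf2 itself, had 108 and 128 CPM in BaP larvae, against 86.8 and 81.7 CPM in control larvae, and 1.3, 0.85 and 2.33 CPM in BaP embryos, against 0.90, 2.20 and 4.28 CPM in control embryos. Its difference was 0.94, between -0.53 and 2.41. Cyp1d1, a relative of cyp1a, overlapped at both ages, with 18 and 24.8 CPM in BaP larvae, against 19.2 and 21.9 CPM in control larvae, and a difference of 0.18 between -2.85 and 3.21. Leaving out single libraries turned the sign of that difference.

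The receptor and its partners gave no common direction. Ahr2, the main zebrafish receptor for such ligands, had 101 and 118 CPM in BaP larvae, against 75.3 and 75.9 CPM in control larvae. BaP embryos had 38.6, 52.0 and 84.7 CPM, against 41.2, 28.2 and 39.0 CPM in control embryos. Its effects were close, 0.53 at 96 hpf and 0.63 at 3.3 hpf, and the difference of -0.10 had a wide interval between -0.98 and 0.78. Arnt2, a dimer partner, had 66.7 and 65.9 CPM in BaP larvae, against 94.8 and 78.7 CPM in control larvae, and 83.5, 95.6 and 74.1 CPM in BaP embryos, against 74.8, 63.3 and 72.6 CPM in control embryos. Its difference was -0.64, between -1.07 and -0.21, at an adjusted p of 0.303. Of the 7 shared pathway components 4 had a positive difference and none was called.

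Taken within larvae, 80 of 18910 genes passed the adjusted test, 0.423% of the table, and 28 of these were among the shared genes, 0.219% of them. The larval count was 38 with the values as deposited and 2 with a spread that has no trend on level. It was 2838 without BaP larval replicate 1, 231 without BaP larval replicate 2, 27 without control larval replicate 2 and 96 without control larval replicate 1, so the genes described next depend on these choices. In embryos no gene passed in limma, 0% of 14236, and 626 of the shared genes (4.89%) had an unadjusted p under 0.05, about the share that this threshold passes where there is no effect. Of the 28 shared genes 24 rose and 4 fell with BaP at 96 hpf, and their median effect was 1.31 at 96 hpf and -0.10 at 3.3 hpf. Among those that fell, si:ch211-162i8.3 exceeded 1 CPM only in control larvae, so it was listed at 96 hpf through the group where it was higher. Its larval direction follows from that listing and is not support for an effect, and the counts given here include it. In embryos 18 of the 28 had an effect under 0, beside 6489 of all 12800 shared genes. The BaP and control embryo values overlapped in 26 of the 28. Over all shared genes BaP libraries lay above every control in 5.88% and below every control in 5.76% in embryos, and in 26.5% and 24% in larvae, where 2 libraries face 2. The 95% interval of the embryo effect included 0 in 26 genes and excluded the size of the larval effect in 22. The difference had the sign of the larval effect in 27 of the 28, a description without a test, since the genes were chosen on their larval values.

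**Figure D2:**
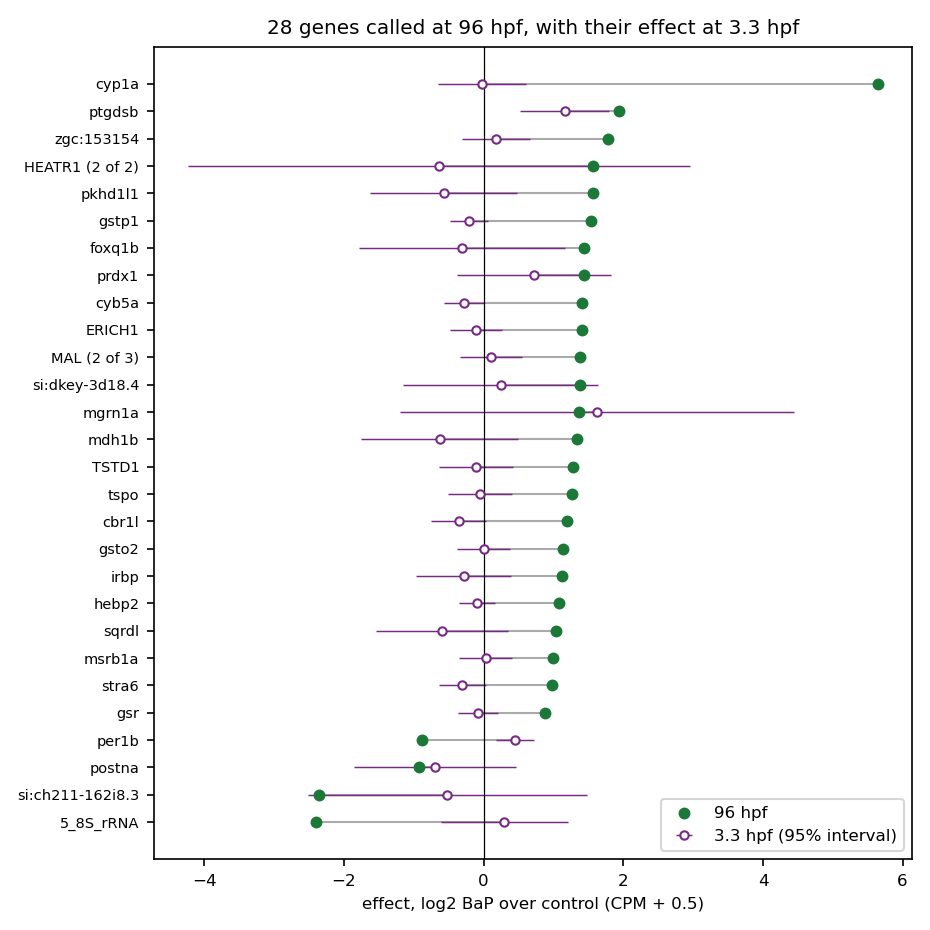
The 28 shared genes that passed the larval test, ordered by their effect at 96 hpf (filled), with the effect at 3.3 hpf (open) and its 95% interval, in log2 BaP over control on CPM + 0.5. The interval of the open point includes 0 in 26 of the 28 genes, the exceptions being ptgdsb and per1b, and 18 open points lie under 0. The larval direction of si:ch211-162i8.3 follows from its listing through control larvae.

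Several of the 28 handle oxidants, heme or reactive carbonyls, and were described after their values were seen. Gsr, glutathione reductase, had 56.9 and 58.0 CPM in BaP larvae, against 32.0 and 29.7 CPM in control larvae. BaP embryos had 39.3, 37.3 and 29.7 CPM, against 40.9, 35.3 and 35.9 CPM in control embryos. Its effects were 0.89 in larvae and -0.08 in embryos, with a narrow embryo interval between -0.37 and 0.21.

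Gsto2, a glutathione S-transferase of the omega class, had effects of 1.14 at 96 hpf and 0.00 at 3.3 hpf, with an embryo interval between -0.37 and 0.38. Cbr1l, a carbonyl reductase relative, had effects of 1.2 and -0.35. Tspo, the translocator protein of the outer mitochondrial membrane, had 1.26 and -0.05. Stra6, the membrane receptor for retinol-binding protein, had 0.98 and -0.30, with 34.8 and 36.4 CPM in BaP larvae, against 17.8 CPM in both control larvae.

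Ptgdsb, a prostaglandin D synthase of the lipocalin type, was the only one of the 28 with separate embryo groups in the larval direction. It had 763 and 802 CPM in BaP larvae, against 199.7 and 208 CPM in control larvae. BaP embryos had 1.75, 1.35 and 3.81 CPM, against 0.589, 0.55 and 0.905 CPM in control embryos. Only the BaP embryo libraries exceeded 1 CPM, so the gene was listed at 3.3 hpf through the group where it was higher. Its separate embryo groups follow from that listing and are not support for an effect. The effects were 1.94 at 96 hpf and 1.16 at 3.3 hpf, the embryo levels lay near the floor, and the difference of 0.78 had an interval between -0.23 and 1.79 and an adjusted p of 0.511.

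At an unadjusted p under 0.05, 1840 shared genes (14.4%) were found for BaP against control at 96 hpf and 626 at 3.3 hpf, with 124 (0.969%) at both ages. Of the 124, 23 had effects of the same sign and 101, or 81.5%, of opposite sign. In 75 of the 101 the effect was positive in embryos and negative in larvae, and in 26 the reverse held. These counts go by the sign of the effect, and some of the genes, such as map2k7 and mt2, had overlapping groups in embryos. Among all shared genes 57.1% had effects of opposite sign, so the share was larger among the 124. Some of the 124 exceeded 1 CPM at an age only in the group where they were higher, as ssh1a, map2k7 and LRP4 did in control larvae. Their direction at that age follows from the listing and is not support for an effect, and the counts given here include them. None of the genes named for this pattern in the next paragraphs passed the adjusted test for the difference.

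Of the same-sign genes, gna15.1, a G protein alpha subunit, had 17.8 and 18.2 CPM in BaP larvae, against 12.1 and 12.9 CPM in control larvae. In embryos it had 1.35, 3.92 and 1.74 CPM with BaP, against 0.508, 0.165 and 0.824 CPM in controls. The BaP libraries were the higher ones at both ages. In embryos only they exceeded 1 CPM, so gna15.1 was listed at 3.3 hpf through the group where it was higher. Its embryo separation follows from that listing and is not support for an effect. Etfa, a subunit of the flavoprotein that passes electrons from fatty acid oxidation, had 136 and 159 CPM in BaP larvae, against 113 and 107 CPM in control larvae, and 23.0, 31.7 and 26.7 CPM in BaP embryos, against 17.9, 17.6 and 20.5 CPM in control embryos. Its effects of 0.42 and 0.52 differed by -0.10, between -0.58 and 0.38, and both ages had BaP above every control.

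Pja2, a ubiquitin ligase, was lower with BaP at both ages, with 1.88 and 1.68 CPM in BaP larvae, against 3.41 and 3.54 CPM in control larvae, and 16.0, 17.6 and 18.4 CPM in BaP embryos, against 29.1, 21.7 and 24.6 CPM in control embryos. WDR7 (2 of 2) was also lower at both, by effects of -0.41 at 96 hpf and -0.88 at 3.3 hpf.

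The opposite-sign genes chosen by the same rule were NF1 (1 of 2), baz2a, SRCAP, TRIO (1 of 2), usp34 and TRRAP. In all 6 BaP libraries were lower than every control in larvae and higher than every control in embryos. The genes were chosen for a small p at both ages, so this count is a description. Of all 12800 shared genes 757 (5.91%) had separate groups at both ages, 283 of them in this direction. SRCAP, in mammals the ATPase of a complex that places the histone variant H2A.Z, had 36.0 and 26.5 CPM in BaP larvae, against 47.6 and 50.2 CPM in control larvae. In embryos it had 275, 312 and 317 CPM with BaP, against 254, 178 and 214 CPM in controls. The effects were -0.65 and 0.50, and the difference of -1.15 lay between -1.67 and -0.63 with an adjusted p of 0.257.

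Baz2a, in mammals a subunit of a nucleolar remodelling complex, had 38.0 and 22.1 CPM in BaP larvae, against 49.2 and 55.9 CPM in control larvae. BaP embryos had 578, 602 and 584 CPM, against 482, 488 and 420 CPM in control embryos. TRRAP, in mammals a scaffold of histone acetyltransferase complexes, had 28.2 and 21.5 CPM in BaP larvae, against 34.2 and 42.5 CPM in control larvae, and 436, 483 and 383 CPM in BaP embryos, against 364, 318 and 334 CPM in control embryos. In each of the 6 genes the lowest larval library was BaP replicate 2, which also stood apart along the first principal component, and the part of that library in the pattern was not tested.

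NF1 (1 of 2), whose mammalian relative is a Ras GTPase activator, had 9.12 and 5.92 CPM in BaP larvae, against 13.4 and 17.5 CPM in control larvae, and 53.8, 70.5 and 62.9 CPM in BaP embryos, against 46.4, 40.7 and 43.5 CPM in control embryos. Its difference was -1.52, between -2.17 and -0.87. TRIO (1 of 2), named after an exchange factor for small GTPases, had effects of -0.93 at 96 hpf and 0.45 at 3.3 hpf. Usp34, a deubiquitinase, was listed at 0.39 and 0 CPM in BaP larvae, against 1.21 and 1.16 CPM in control larvae. Only the control larvae exceeded 1 CPM, so usp34 was listed at 96 hpf through the group where it was higher. Its larval separation follows from that listing and is not support for an effect. It stood at 5.65, 9.17 and 7.07 CPM in BaP embryos, against 3.73, 2.92 and 2.53 CPM in control embryos.

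Across all 12800 genes the effects at both ages tended to opposite sign. They had the same sign in 5497 genes (42.9%) and opposite sign in 7303, of which 3872 were higher with BaP in larvae and lower in embryos and 3431 the reverse. Both effects were positive in 2880 genes and both negative in 2617. Pearson's r across genes was -0.14 and Spearman's rank correlation -0.19, given as a description without p, since all genes share the same libraries and are not independent replicates. The standard deviation of the effects across genes was 0.39 log2 units at 96 hpf and 0.33 at 3.3 hpf. The effects of the ages were formed from separate libraries with separate controls.

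The tendency was present where effects were small and where they were larger. Among the 10458 genes with an unadjusted p under 0.05 at neither age, 44.5% had the same sign. The share was 37.2% in the 1716 genes under 0.05 at 96 hpf alone and 35.9% in the 502 under 0.05 at 3.3 hpf alone. BaP and control libraries were separate at both ages in 757 genes (5.91%), of which 204 had the same sign and 553 (73.1%) opposite sign. The 757 include genes such as ssh1a that were listed at an age only through the group where they were higher. In 5 bins of average level r ran between -0.17 and -0.12. Leaving out any 1 library gave r between -0.15 and -0.08 and a same-sign share between 41.4% and 45.3%.

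**Figure D3:**
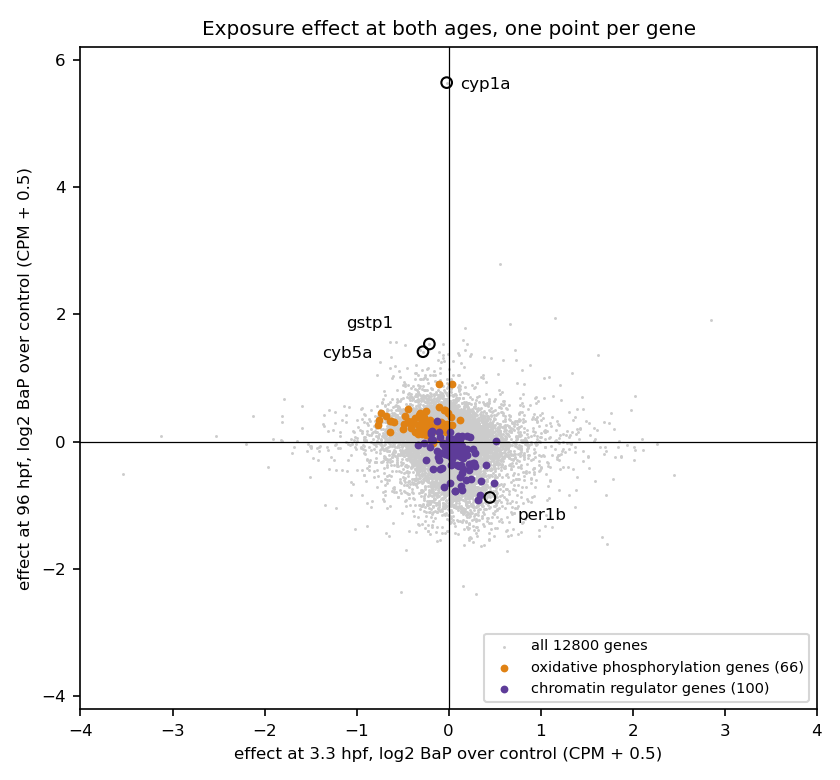
Each of 12800 genes at its effect at 3.3 hpf (x axis) and at 96 hpf (y axis), in log2 BaP over control on CPM + 0.5, with 66 oxidative phosphorylation genes in orange and 100 chromatin regulator genes in purple. The orange genes lie mostly at the upper left, the purple genes mostly at the lower right, and cyp1a stands alone at 5.64 in larvae and -0.02 in embryos.

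Gene groups fell unevenly among these combinations of sign. The lists described next were put together from known functions with earlier results of these data in view, and the chromatin list was added after the values here were seen, so their counts are descriptions. Within them only cyp1a and gstp1 passed the adjusted test for the difference. Scaling the libraries within each age raised the larval effects of all genes by a median of 0.09 log2 units over the deposited values and the differences by 0.06, and for the counts of positive or negative differences the value under both is given where they part.

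Nuclear genes of oxidative phosphorylation, which encode the respiratory chain and ATP synthase, all had a positive difference, 66 of 66, against 51.8% of all genes. BaP lay above control at 96 hpf in 65 of them and below control at 3.3 hpf in 62, and with the deposited scaling in 63 and 62. Their median effect was 0.28 at 96 hpf and -0.25 at 3.3 hpf. At an unadjusted p under 0.05, 23 of the 66 had a positive difference and none a negative one, beside 5.01% and 6.68% of all genes. The median member stood at 0.16 and 0.42 log2 units from the control mean in BaP larvae, against 0.08 and -0.08 in control larvae, and at -0.31, -0.11 and -0.22 in BaP embryos, against 0.12, -0.04 and -0.08 in control embryos. The groups did not overlap at either age, although in embryos BaP replicate 2 lay next to control replicate 3, at -0.108 and -0.085. In larvae, where 2 libraries face 2, most of the gene lists had separate groups by this median. In embryos so did the proteasome, Nrf2, nucleotide excision repair, p53, neural and cyclin lists.

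Uqcrb, a complex III subunit, had 222 and 274 CPM in BaP larvae, against 190 and 169 CPM in control larvae, and 7.48, 6.48 and 6.30 CPM in BaP embryos, against 12, 10.4 and 12.4 CPM in control embryos. Its difference was 1.19, between 0.71 and 1.68, with an adjusted p of 0.208. Atp5d, of ATP synthase, had 276 and 317 CPM in BaP larvae, against 245 and 233 CPM in control larvae, and 13.5, 12.6 and 14.6 CPM in BaP embryos, against 25.7, 17.8 and 19.3 CPM in control embryos. Cox6c, of complex IV, had a difference of 1.08 with the same layout, and cox5aa a difference of 1.02 that came from larvae, with 61.6 and 77.6 CPM with BaP, against 35.7 and 37.3 CPM in controls, while its embryo groups overlapped.

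Proteasome genes, which encode the protease that degrades ubiquitin-tagged proteins, had a positive difference in 44 of 47, and in 43 with the deposited scaling. The exceptions, psme3, psme4a and psme4b, encode alternative activators and not the core or its standard cap. The list's median effect was 0.25 at 96 hpf and -0.18 at 3.3 hpf. At an unadjusted p under 0.05, 14 members had a positive difference and none a negative one, beside 5.01% and 6.68% of all genes. The median member stood at 0.21 and 0.31 in BaP larvae, against -0.00 and 0.00 in control larvae, and at -0.21, -0.18 and -0.11 in BaP embryos, against 0.15, -0.09 and -0.05 in control embryos, without overlap at either age. In embryos, however, BaP replicate 3 lay next to control replicate 2, at -0.105 and -0.089. Psmc5, an ATPase of the cap, had 130 and 129 CPM in BaP larvae, against 98.2 and 109 CPM in control larvae, and 25.7, 29.5 and 29.8 CPM in BaP embryos, against 35.1, 32.8 and 31.6 CPM in control embryos.

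Cytosolic ribosomal protein genes had a positive difference in 75 of 75, with median effects of 0.22 at 96 hpf and -0.16 at 3.3 hpf, or 0.14 and -0.19 with the deposited scaling. Their libraries were less well separated. The median member stood at 0.10 and 0.35 in BaP larvae, against 0.15 and -0.15 in control larvae, and at -0.03, -0.34 and -0.09 in BaP embryos, against 0.17, 0.04 and -0.19 in control embryos, so the groups overlapped at both ages. At an unadjusted p under 0.05, 9 of the 75 had a positive difference and none a negative one. Of all genes 5.01% and 6.68% did so, or 11.7% with either sign. Rpl39 had 810 and 1136 CPM in BaP larvae, against 863 and 636 CPM in control larvae, and 43.9, 47.8 and 53.2 CPM in BaP embryos, against 77.8, 57.5 and 58.2 CPM in control embryos.

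Nrf2 targets and antioxidant genes had a positive difference in 22 of 23, and in 21 with the deposited scaling. Their median effect was 0.50 at 96 hpf and -0.20 at 3.3 hpf. At an unadjusted p under 0.05, 10 had a positive difference and none a negative one, beside 5.01% and 6.68% of all genes. In larvae all 23 lay above control, or 22 with the deposited scaling, while in embryos 14 lay below it and 9 above. The median member stood at 0.35 and 0.66 in BaP larvae, against 0.03 and -0.03 in control larvae, and at -0.17, -0.19 and -0.03 in BaP embryos, against 0.09, -0.01 and 0.03 in control embryos. The groups did not overlap at either age, although BaP embryo replicate 3 lay next to the controls.

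Gpx4b, a peroxidase of lipid hydroperoxides, had 177 and 184 CPM in BaP larvae, against 151 and 148 CPM in control larvae. BaP embryos had 27.6, 27.5 and 22.7 CPM, against 52.9, 33.8 and 48.1 CPM in control embryos. Most of its difference of 1.03 (adjusted p 0.267) came from the embryo effect of -0.76. In gsr the larval effect gave most of a difference of 0.97 (adjusted p 0.267), so members of the list reached a like difference from different ages. Sod1, the cytosolic superoxide dismutase, had 117 and 152 CPM in BaP larvae, against 89.99 and 89.4 CPM in control larvae, and 89.1, 69.2 and 98.3 CPM in BaP embryos, against 97.7, 99.8 and 104 CPM in control embryos.

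**Figure D4:**
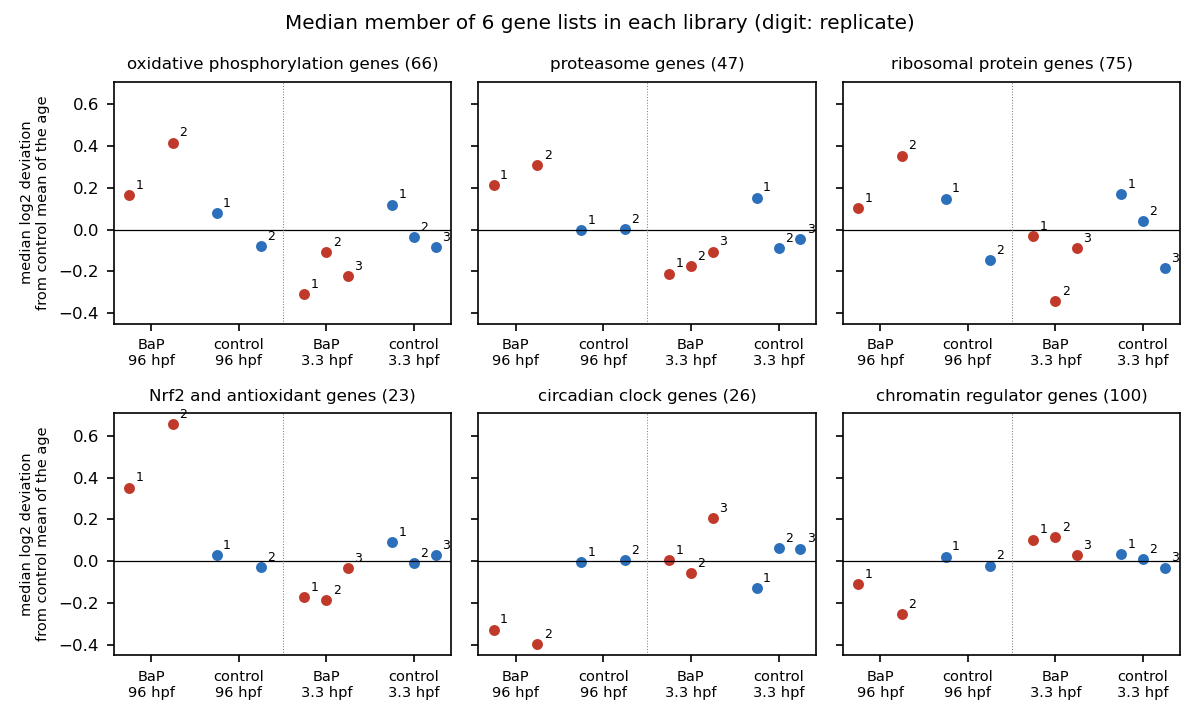
The median member of 6 gene lists in each library, as the log2 deviation from the control mean of the same age (red BaP, blue control, the digit being the replicate, list size in brackets). Oxidative phosphorylation, proteasome and Nrf2 genes are above control in larvae and below it in embryos without overlap, ribosomal protein genes overlap at both ages, and clock and chromatin genes are below control in larvae.

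Circadian clock genes went the other way, with a negative difference in 20 of 26, against 48.2% of all genes, and median effects of -0.41 at 96 hpf and 0.08 at 3.3 hpf. At an unadjusted p under 0.05, 7 were negative and 2 positive, beside 6.68% and 5.01% of all genes. The median member stood at -0.33 and -0.40 in BaP larvae, against -0.00 and 0.00 in control larvae, and overlapped between groups in embryos. Per2, a light-induced clock gene, had 109 and 82.1 CPM in BaP larvae, against 133 and 171 CPM in control larvae, and 103, 91.1 and 102 CPM in BaP embryos, against 90.3, 96.7 and 91.8 CPM in control embryos. Per3 had 12.8 and 7.12 CPM in BaP larvae, against 20.7 and 29.2 CPM in control larvae, with a difference of -1.70. Cry2a, a cryptochrome, ran against the list, with 404 and 369 CPM in BaP larvae, against 283 and 253 CPM in control larvae, and a difference of 0.75.

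Chromatin regulator genes, which encode remodelling ATPases and enzymes that write or remove histone marks, had a negative difference in 84 of 100, and in 87 with the deposited scaling. Their median effect was -0.18 at 96 hpf and 0.08 at 3.3 hpf. At an unadjusted p under 0.05, 31 had a negative difference and 1 a positive one, beside 6.68% and 5.01% of all genes. The median member stood at -0.11 and -0.25 in BaP larvae, against 0.02 and -0.02 in control larvae. In embryos it stood at 0.10, 0.12 and 0.03 with BaP, against 0.03, 0.01 and -0.03 in controls, so the embryo groups overlapped slightly. Whsc1, a histone H3 lysine methyltransferase, had 32.9 and 31.1 CPM in BaP larvae, against 42.9 and 43.3 CPM in control larvae, and 694, 767 and 694 CPM in BaP embryos, against 637, 667 and 627 CPM in control embryos. Arid1ab, a subunit of SWI/SNF remodellers, had 102 and 86.3 CPM in BaP larvae, against 125 and 114 CPM in control larvae, and 710, 776 and 724 CPM in BaP embryos, against 619, 616 and 586 CPM in control embryos.

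**Figure D5:**
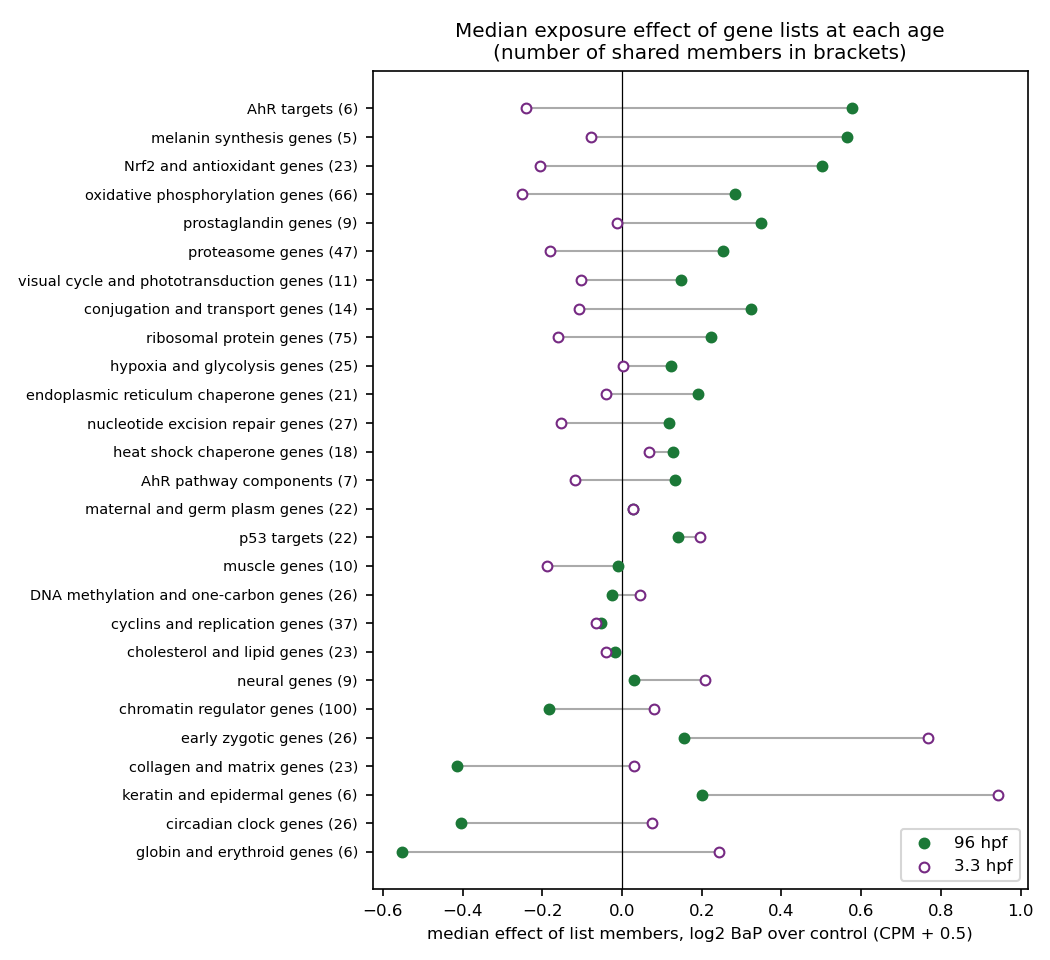
Median effect of the shared members of 27 gene lists at 96 hpf (filled) and 3.3 hpf (open), in log2 BaP over control on CPM + 0.5, with list sizes in brackets and lists ordered by their median difference. Oxidative phosphorylation genes are at 0.28 and -0.25, chromatin regulator genes at -0.18 and 0.08, and p53 targets lie above 0 at both ages.

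Genes of matrix and of blood that were listed at both ages also had mostly negative differences. Of 54 collagen and matrix genes found, 31 were listed at 96 hpf alone and can have no difference. The 23 shared ones had a negative difference in 21, against 48.2% of all genes, with median effects of -0.41 at 96 hpf and 0.03 at 3.3 hpf. Of the 23 only 2 had an unadjusted p under 0.05 for the difference, both negative, beside 11.7% of all genes with either sign. Col4a1, of basement membranes, had 30.1 and 19.4 CPM in BaP larvae, against 50.3 and 68.9 CPM in control larvae, and 5.50, 4.21 and 6.58 CPM in BaP embryos, against 4.57, 1.60 and 3.02 CPM in control embryos. Of 18 globin and erythroid genes found, 12 were listed at 96 hpf alone. All 6 shared ones, 2 of them at an unadjusted p under 0.05, had a negative difference. Among them tfr1a, the transferrin receptor of red cell precursors, had 6.10 and 3.41 CPM in BaP larvae, against 10.8 and 17.2 CPM in control larvae, and 12.1, 11.4 and 26.9 CPM in BaP embryos, against 8.24, 5.56 and 9.45 CPM in control embryos. No member of either list passed the adjusted test for the difference.

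Genes of DNA damage did not follow a single pattern. Of 22 p53 targets 11 had a positive difference, against 51.8% of all genes. The effects at both ages had the same sign in 16, against 42.9% of all genes, with medians of 0.14 at 96 hpf and 0.20 at 3.3 hpf. With the deposited scaling the counts of targets were 10 and 13, and the medians 0.054 and 0.17. The median p53 target stood at 0.16 and 0.25 in BaP larvae, against 0.04 and -0.04 in control larvae. In embryos it stood at 0.09, 0.27 and 0.03 with BaP, against 0.01, 0.00 and -0.05 in controls. BaP was thus above every control at both ages, with BaP embryo replicate 3 next to the controls. Of the 22 targets 1 had an unadjusted p under 0.05 for the difference. Mdm2, the ubiquitin ligase that restrains p53, had 56.1 and 57.1 CPM in BaP larvae, against 34.2 and 46.9 CPM in control larvae, and overlapping embryo groups. Nucleotide excision repair genes encode products that remove bulky adducts such as those of BaP. A positive difference was found in 23 of 27, against 51.8% of all genes, and in 22 with the deposited scaling. Of these 27 repair genes 3 had an unadjusted p under 0.05 for the difference, all positive, beside 11.7% of all genes with either sign. Ddb2, a damage sensor of that pathway and a p53 target, had 39.6 and 50.8 CPM in BaP larvae, against 32.7 and 37.0 CPM in control larvae, and 50.6, 29.4 and 46.4 CPM in BaP embryos, against 61.2, 62.9 and 56.2 CPM in control embryos. Its groups were separate at both ages and in opposite directions, with a difference of 0.90 at an adjusted p of 0.33.

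Chaperone genes of the endoplasmic reticulum had a positive difference in 17 of 21, against 51.8% of all genes. An unadjusted p under 0.05 for the difference was found for 4 of the 21, all positive, beside 11.7% of all genes with either sign. Hspa5, the chaperone BiP, had 372 and 364 CPM in BaP larvae, against 367 and 361 CPM in control larvae. In embryos it had 436, 361 and 537 CPM with BaP, against 824, 748 and 695 CPM in controls. Its difference of 0.79 (adjusted p 0.275) therefore lay in the embryos, where BaP was below every control. Heat shock chaperone genes had a positive difference in 12 of 18, against 51.8% of all genes. Among them was dnajb1b, an Hsp40 co-chaperone with 26.4 and 23.3 CPM in BaP larvae, against 12.1 and 9.60 CPM in control larvae, and overlapping embryo groups. Of the 18 heat shock genes 3 had a positive and 1 a negative difference at an unadjusted p under 0.05.

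Early zygotic genes, the first to be transcribed by the embryo, varied between embryo libraries of the same group more than between groups. Their median member stood at -1.29, 3.01 and 0.65 log2 units from the control mean in BaP embryos, against 1.80, -1.43 and -0.04 in control embryos. Of the 26 shared members 21 had a negative difference, against 48.2% of all genes, and none passed the adjusted test. An unadjusted p under 0.05 was found for 1, beside 11.7% of all genes. Krt18, a keratin of the enveloping layer, was listed at 0, 68.8 and 1.61 CPM in BaP embryos, against 1.82, 0.22 and 0.55 CPM in control embryos. BaP replicate 2 and control replicate 1 were the libraries with the most of these transcripts. Without both, 3 genes were called for the difference, cyp1a, cyb5a and CCBL2 (1 of 4), and gstp1 had an adjusted p of 0.0754.

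The genes listed at 96 hpf alone can have no difference between ages, and they held a larger share of the larval calls. Of 6110 such genes 52 passed the larval test, or 0.851%, and 48 of the 52 rose. Some of the 52 were listed only through the group where they were higher. Cyp2x7, ccl1 and slc2a5 exceeded 1 CPM only in BaP larvae and CABZ01045617.2 only in control larvae. Their separation and direction follow from that listing and are not support for an effect. Among the 52 were 5 of the 6 AhR targets listed at 96 hpf alone. Cyp1c1, a P450 related to cyp1a, had 180 and 227 CPM in BaP larvae, against 23.3 and 24.5 CPM in control larvae. Cyp1b1, another P450 of the family, had 28.0 and 26.5 CPM in BaP larvae, against 2.43 and 2.03 CPM in control larvae. Their larval effects were 3.06 and 3.35 log2 units, and both lay below the floor of the embryo table.

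Sult6b1, a sulfotransferase, had 217 and 237 CPM in BaP larvae, against 62.7 and 61.5 CPM in control larvae. Rpe65a, the isomerohydrolase of the visual cycle, had 151 and 103 CPM in BaP larvae, against 25.3 and 21.6 CPM in control larvae, with an effect of 2.40. Krt1-19d, a keratin, rose by 1.66 and PTGR1 (2 of 2), named after a prostaglandin reductase, by 2.69 log2 units. In each of these genes the larval groups were separate, and whether embryos responded could not be read from a table that does not list them.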

How the data were processed

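Pooled whole zebrafish gave 2 BaP and 2 control RNA libraries at 96 hpf, with 3 and 3 at 3.3 hpf, made with TruSeq kits, per the labels' protocols. TopHat, Partek and edgeR and the build Zv9 are named, without versions or roles, per the submitters' processing notes. The deposited gene values are CPM, scaled by the authors to the same total in each column, a unit read from the values. All listed genes exceeded 1 CPM in 2 or more larval or 3 or more embryo libraries. Read depth was taken from the spacing of low values. Of those between 0.3 and 4 CPM, between 77.0% and 82.3% were whole reads within 0.05 read, so reads were not recovered and no count test was run. 0 sample columns were left unmapped, and the RefSeq columns at 3.3 hpf could be tied to their group only.

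Library factors were computed within each age on the whole table as trimmed means of log ratios (TMM), trimming 30% by ratio and 5% by level. A single limma 3.58.1 fit (R 4.3.3, trended empirical Bayes spread, 4 group means, no block) on log2(CPM + 0.5) tested the difference of the effects over 12800 genes, with Benjamini-Hochberg adjustment and a threshold of 0.05. Own-age effects were tested on each whole table. On 3 simulated tables with 200 changed genes of 12800, the fit called 18.7% of differences of 2-fold and 59% of 4-fold, with 6.43% of calls false. The simulated noise was drawn for each gene separately, with no part shared by the genes of a library. These rates may therefore not hold for the libraries themselves. Fold changes on this scale understate those of low genes.

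The genes and lists were chosen with earlier results of these data known. Genes named were those called, all AhR targets, the 6 clearest of each sign under 0.05 at both ages, the 6 clearest larval calls missing at 3.3 hpf and the 3 clearest of each list with a call, other than clone names. Other genes were named after their values were seen, and so were chosen the chromatin list, the list counts under each alternative and the crossed block. Older symbols were matched through RefSeq gene names, from an assembly other than Zv9, so no coordinates or sequences are printed. Gene names altered to dates stayed in the fits. Transcript tables were not used. A gene that the naming rule selects is not reported here. Same-numbered libraries did not deviate together (r of deviations -0.44, -0.43 and -0.01 at 3.3 hpf and -0.26 at 96 hpf). With 2 or 3 libraries per group the deviations within a group are bound to each other, so this check cannot exclude that the numbers pair samples. The calls with the number as a block are given below.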

Additional observations from a re-analysis of the deposited data

Results flagged for a closer look

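The exposure effect differed between ages in a direct test for 3 genes, each larger at 96 hpf than at 3.3 hpf. The difference was 5.66 log2 units for cyp1a, 1.74 for gstp1 and 1.69 for cyb5a, with adjusted p of 0.00244, 0.0278 and 0.035 in limma. In each gene both BaP larval libraries lay above both control larval libraries, and the embryo groups overlapped. All 3 were called with the fit of all libraries as described, and none without BaP larval replicate 2. With all libraries and a spread that has no trend on level, limma called 1 gene. With all libraries and the replicate number as a block it called 0.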

How the results depend on the processing

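The 3 calls for the difference between ages were also 3 in number with median-ratio scaling, with the deposited scaling, with a pseudocount of 0.25 or 2, with robust spread and with array weights. The count was 1 with a spread that has no trend on level and 6 where each age was fitted alone, which adds per1b, hebp2 and cbr1l. Among genes averaging at least 5 CPM at both ages, which leaves cyp1a out, it was 2. It ran between 0 and 109 when single libraries were left out, a lone larval library then being taken to vary like the other groups. The RefSeq tables gave 3 calls in 9103 genes. The replicate number as a block gave 0 calls in limma, with 991 genes at an unadjusted p under 0.05. The crossed pairing at 96 hpf, added after seeing the data, gave 0 calls and 1517 such genes. The same-sign share stayed at 42.95%, since a block that holds a BaP and a control library each time cannot change the effects.

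The same-sign share was 43.97% with the deposited scaling, 44.46% without control replicate 1 and BaP replicate 2 at 3.3 hpf, and between 41.4% and 45.27% without single libraries. Over all 23 alternatives r across genes stayed between -0.15 and -0.08. Some of these, such as the blocks and the changes of spread, leave the effects as they are and could not move r. The opposite-sign share among genes under 0.05 at both ages ran between 74.77% and 85.96% without single libraries. Calls at 96 hpf numbered 38 with the deposited scaling, 2 without the trend and between 27 and 2838 without single libraries, the highest without BaP replicate 1. Calls at 3.3 hpf numbered 0 or 1 without single libraries.

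Without single libraries, positive differences numbered between 65 and 66 for oxidative phosphorylation, 43 and 45 for proteasome, 71 and 75 for ribosomal protein and 21 and 22 for Nrf2 genes, and negative ones between 18 and 21 for clock and 76 and 86 for chromatin genes. The difference of cyp1d1 turned to -0.043 with a pseudocount of 2 and ran between -1.04 and 1.24 when libraries were left out, negative without control replicate 3 or BaP replicate 3 at 3.3 hpf or BaP replicate 2 at 96 hpf. That of etfa ran between -0.22 and 0.043, positive without BaP replicate 2 at 3.3 hpf, with or without control replicate 1. The cause was not tested. In all, 991 of 1048 pairs of a named gene and an alternative kept direction and side of the threshold. With 2 libraries per group at 96 hpf and 13.15 M to 22.16 M reads, differences of 2-fold are mostly below what the test can call.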

Other observations

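Melanin synthesis genes shared by both ages numbered 5, and 4 had a positive difference, against 51.8% of all genes. Their median member stood at 1.15 and 0.37 log2 units from the control mean in BaP larvae, against -0.03 and 0.03 in control larvae, so that BaP larval replicate 1 was the higher one here, unlike in the oxidative phosphorylation list. In embryos it stood at 0.09, 0.19 and -0.04 with BaP, against -0.03, 0.02 and 0.01 in controls, and the groups overlapped. Conjugation and transport genes had a positive difference in 12 of 14, against 51.8% of all genes, with a larval median effect of 0.32 and an embryo median of -0.11. At an unadjusted p under 0.05, 4 had a positive difference and none a negative one, beside 5.01% and 6.68% of all genes.

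Genes of DNA methylation and one-carbon metabolism had 13 positive and 13 negative differences, or 12 and 14 with the deposited scaling, and maternal and germ plasm genes had 11 and 11, or 10 and 12. Cholesterol and lipid genes had 11 positive and 12 negative differences and none with an unadjusted p under 0.05, beside 11.7% of all genes. Cyclins and replication genes had 18 positive and 19 negative. No member of these lists passed the adjusted limma test for the difference.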
